A study of Mus musculus with 18 samples.

Results

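The 10 genes described here code for the proteins that make peptides from the cell's own proteins or from engulfed ones and display them on MHC molecules. They were chosen by gene symbol: H2-K1, H2-D1 and B2m (class I molecule), Tap1, Tap2 and Tapbp (peptide transport and loading), Psmb8 and Psmb9 (immunoproteasome), and H2-Aa and Cd74 (class II). Of the 45101 probe sets on the array, 30 carry one of these symbols alone, and the array's one-symbol probe sets name 18194 genes in all. The probe sets were measured in 3 samples of each of 6 groups: Ppt1 knockout (KO) at 3, 5 and 8 months and wild type (WT) at 3, 5 and 8 months, 18 arrays in all. The product of Ppt1 works in the lysosome, where it strips palmitate from proteins, and people who lack it develop an early-onset storage disease of the brain. KO and WT differ, per the labels, in genotype; the labels give age and sex for every array, name the source as brain and cochlea, and give neither the strain, the targeted part of Ppt1, the dissected region, nor whether each array came from its own mouse. Each group held 1 male and 2 female samples, except KO at 8 months, which held 2 males and 1 female. A p-value here therefore reflects array-to-array spread, which may be technical.

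MHC class I molecules are built from a heavy chain, such as the products of H2-K1 and H2-D1, and the light chain beta-2 microglobulin. Peptides cut by the proteasome are carried into the endoplasmic reticulum by the TAP1-TAP2 transporter and fitted to class I with the help of tapasin, and interferons replace catalytic subunits of the ordinary proteasome with PSMB8 and PSMB9. Class II molecules, such as the H2-A alpha and beta pair, carry peptides from engulfed material after their chaperone, the invariant chain CD74, has been degraded. In healthy brain the class I genes are expressed mostly in microglia and vessels, and genes of both classes rise in many forms of inflammation. Here the brightest probe sets of B2m, H2-D1 and H2-K1 averaged 1339.6, 560 and 311.2 in WT, above the array medians of 43.2 to 46.1.

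The Ppt1 probe set checked the labels: its signal was 0.879 to 23.4 on the KO arrays, against 542.6 to 629.4 on the WT arrays, and 5 of the 9 KO arrays were no brighter than the bacterial control probes. Every deposited array had a 2% trimmed mean of 150, and median signals of 43.2 to 46.1. The 3 KO arrays at 8 months stood apart: over the tested probe sets their mean correlation with each other's arrays was 0.961 to 0.969, against 0.979 to 0.983 in the other groups, and where leaving them out changed the call of a gene's brightest probe set at 8 months or over the ages, both values are given with that gene. Of the 7 cochlear markers, Oc90 was at the bacterial background on all 18 arrays, Slc26a5 on 15, Tectb on 11, Otoa on 9, Otos on 8 and Myo15 on 3, and Coch on none (169.6 on average in KO and 172.4 in WT). The 5 neuronal markers were bright, with sums of 18845.4 to 22507.7 in KO and 21406.7 to 23944.2 in WT. Signals are in the authors' linear units, and changes are differences of log2(signal + 16) fitted with limma across 27022 probe sets. Fold values given with these changes are therefore ratios of signal + 16. They understate the ratio of the signals themselves, most of all for dim genes.

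All 9 member genes that had a tested probe set were higher in KO than in WT samples over the 3 ages, each at the probe set with the highest mean signal. Changes ran from 0.47 for Cd74 to 1.45 for H2-K1 on the log2 scale, with limma adjusted p between 2.74e-14 and 0.0123. Their median change was 0.77, against -0.013 over all tested probe sets, and 6.62% of all tested probe sets were higher at this threshold. Without KO replicates 1 and 2 at 8 months the count was 7, since Tap2 and Psmb9 no longer passed, and at 8 months it was 4, since Tapbp and Psmb8 did not. By probe set, 17 of the 17 tested ones were higher, and another 13 were too dim to pass the filter on mean signal. At 3 months 5 of the 9 genes were higher, at 5 months 6 and at 8 months 6, against background shares of 0.681%, 1.64% and 5.74%. The members that rose at every age at their brightest probe set were H2-K1, H2-D1, B2m, Tapbp and H2-Aa, joined at 5 and 8 months by Psmb8. Some other tested probe sets of H2-K1, H2-D1, Tapbp and H2-Aa did not pass at every age, as given with each gene. At 9 of the 17 probe sets, and at 5 of the 9 genes' brightest ones (H2-K1, H2-D1, B2m, Tapbp and Psmb8), the lowest KO array lay above the highest WT array, which held at 1.13% of all tested probe sets.

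**Figure D1:**
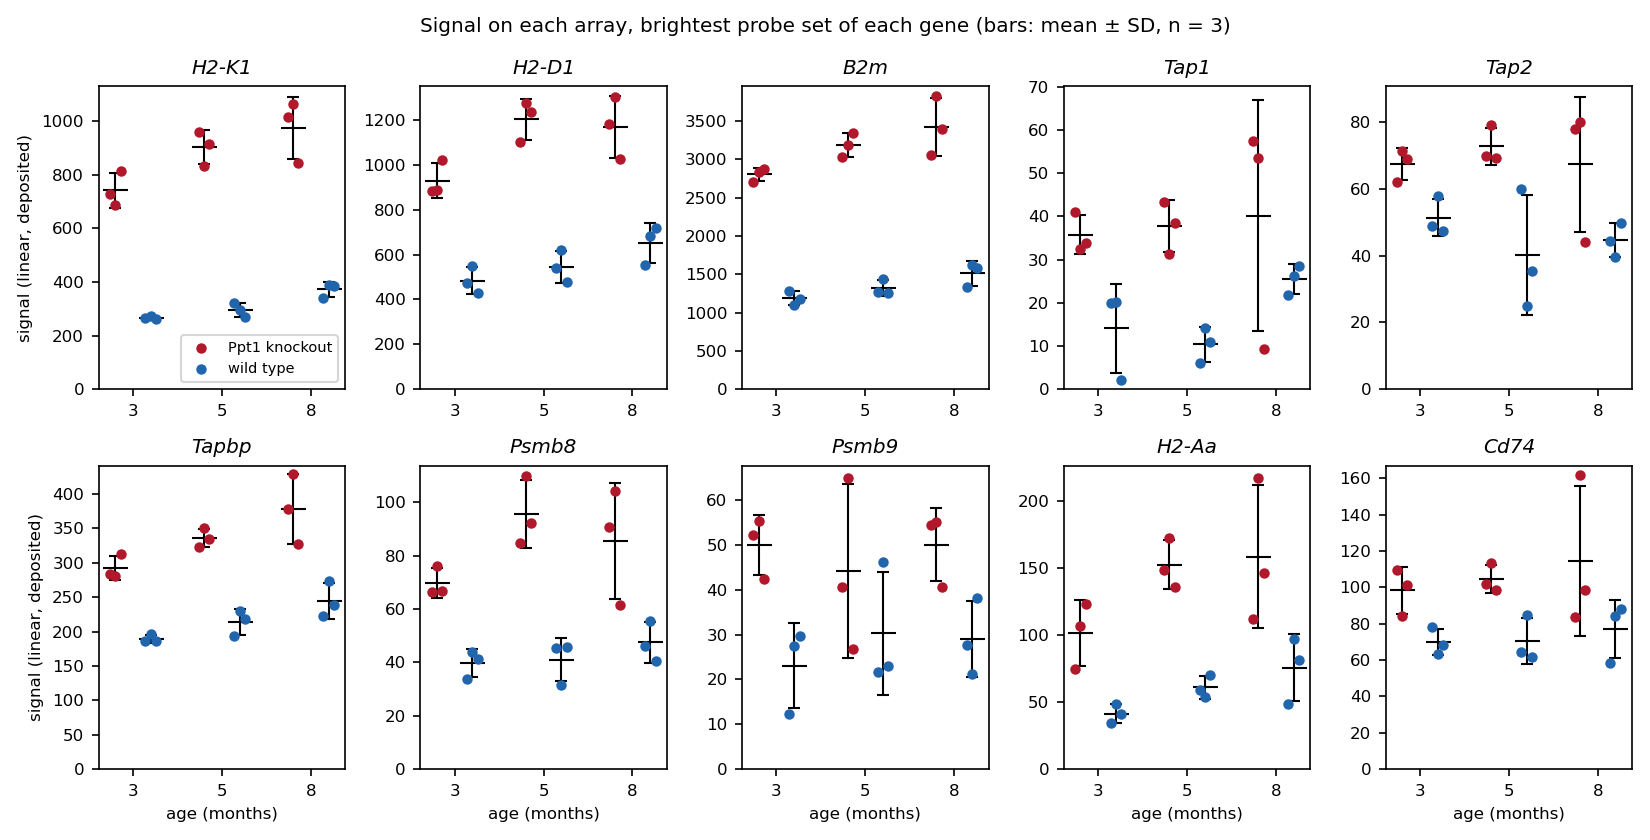
Deposited linear signal on each array (y axis, from 0 in each panel) against age in months for the brightest probe set of each of the 10 genes, KO red and WT blue, with mean and SD of 3 arrays as bars. For H2-K1 the KO arrays lie between 686.8 and 1063.8 and the WT arrays between 260.5 and 390.4. Over all ages Psmb9, Tap1, Tap2, H2-Aa and Cd74 overlap between genotypes.

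H2-K1 codes for a class I heavy chain that presents peptide on nearly all nucleated cells. Its signal at probe set 1425336_x_at was 726.6, 686.8 and 814.9 in KO at 3 months, 958.9, 834.5 and 915.3 in KO at 5 months, and 1014.6, 1063.8 and 843.4 in KO at 8 months. In WT it was 265.3, 273.7 and 260.5 at 3 months, 321.1, 294.4 and 269.5 at 5 months, and 340.5, 390.4 and 385.4 at 8 months. All KO arrays thus lay above all WT arrays. The 8-month and 5-month KO groups overlapped, the 5-month KO arrays lay above those of 3 months, and among WT the 8-month arrays lay above the 5-month ones while 5 and 3 months overlapped. Mean signals were 742.8 ± 65.6, 902.9 ± 63.1 and 973.9 ± 115.7 in KO at 3, 5 and 8 months, and 266.5 ± 6.67, 295.0 ± 25.8 and 372.1 ± 27.5 in WT (SD, n = 3 each). Over the ages the change was 1.45 ± 0.06 (SE), a 2.73-fold higher signal with a limma adjusted p of 6.68e-14, and by age it was 1.42, 1.56 and 1.35 at 3, 5 and 8 months. Both other tested H2-K1 probe sets were higher too, by 1.37 ± 0.09 at 1451931_x_at and by 1.3 ± 0.15 at 1427746_x_at. The changes at 1427746_x_at were 2.12, 1.12 and 0.65 at 3, 5 and 8 months, and the 8-month one did not pass (limma adjusted p = 0.107), but did without KO replicate 1 of that age (0.91, limma adjusted p = 0.0306). The remaining H2-K1 probe set, 1450534_x_at, was too dim to be tested.

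H2-D1 codes for a second class I heavy chain. At 1425545_x_at its signal was 882.1, 886.4 and 1021.5 in KO at 3 months, 1100.3, 1274.1 and 1234.4 at 5 months, and 1181.5, 1300.5 and 1025.7 at 8 months. The WT values were 473.9, 548.6 and 428 at 3 months, 538.4, 620.2 and 477.1 at 5 months, and 551.5, 682.9 and 719.6 at 8 months. No KO array fell within the WT range. The change over the ages was 0.98 ± 0.06, or 1.97-fold (limma adjusted p = 1.68e-10), and 0.93, 1.12 and 0.88 at 3, 5 and 8 months. Of the 3 other tested H2-D1 probe sets, 1451784_x_at and 1451683_x_at each rose by 0.98, and 1426324_at by 0.49, while 5 more were too dim to test. By age, 1451683_x_at passed at each, and 1451784_x_at did not pass at 8 months (0.6, limma adjusted p = 0.0564). At 1426324_at the changes at 3 and 5 months did not pass (0.47 and 0.34, limma adjusted p = 0.408 and 0.468). A probe set that the platform assigns to both H2-K1 and H2-D1, 1424948_x_at, was higher by 1.29 ± 0.13 (limma adjusted p = 6.3e-07). The class I heavy chains are near-identical over long stretches, and most of these probe sets, by the _x_ in their names, hold probes that also match other sequences, so signal may be shared between H2-K1, H2-D1 and other heavy chains.

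B2m codes for beta-2 microglobulin, the light chain that every class I heavy chain needs to reach the cell surface. Its signal at 1449289_a_at was 2707.8, 2836 and 2870 in KO at 3 months, 3034.8, 3187 and 3339.6 at 5 months, and 3059.4, 3819.1 and 3387.8 at 8 months. In WT it was 1284.9, 1104.7 and 1177 at 3 months, 1269.1, 1435.7 and 1253.6 at 5 months, and 1329.4, 1625.8 and 1576.3 at 8 months. The lowest KO array was thus well above the highest WT array. The change over the ages was 1.23 ± 0.05, or 2.35-fold (limma adjusted p = 2.74e-14), and it was 1.23, 1.26 and 1.2 at 3, 5 and 8 months. The second probe set, 1452428_a_at, rose by 1.15 ± 0.07 (limma adjusted p = 7.46e-11).

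Since these 3 class I genes moved together, their start regions are shown from 250 bases before to 50 bases after the RefSeq start, on GRCm38.p6, read 5' to 3' on the gene's own strand. Capitals mark matches on either strand to a pair of GAAA with 2 bases between them (the core of an interferon-stimulated response element), GAANNGAAA (a shorter form of it), TTCNNNGAA (the STAT-type GAS element), TGACG (a cAMP-response half-site), ATTGG (an inverted CCAAT box) and the NF-kappaB consensus, as found by letter search. Motifs were searched separately, so matches may overlap. H2-K1 is shown at chr17:34000298-34000597 on the minus strand, H2-D1 at chr17:35262844-35263143 on the plus strand and B2m at chr2:122147437-122147736 on the plus strand.
H2-K1: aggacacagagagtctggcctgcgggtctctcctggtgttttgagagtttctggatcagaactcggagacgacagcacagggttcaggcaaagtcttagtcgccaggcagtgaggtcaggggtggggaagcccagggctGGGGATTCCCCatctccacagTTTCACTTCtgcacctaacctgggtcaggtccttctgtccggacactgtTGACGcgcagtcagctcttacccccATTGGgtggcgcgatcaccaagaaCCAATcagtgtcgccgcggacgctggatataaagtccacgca
H2-D1: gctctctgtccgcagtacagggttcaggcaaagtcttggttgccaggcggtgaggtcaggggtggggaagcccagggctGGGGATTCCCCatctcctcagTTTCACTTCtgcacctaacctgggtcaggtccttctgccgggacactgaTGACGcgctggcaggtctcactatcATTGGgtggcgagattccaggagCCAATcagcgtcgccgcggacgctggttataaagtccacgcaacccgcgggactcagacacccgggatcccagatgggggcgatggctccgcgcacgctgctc
B2m: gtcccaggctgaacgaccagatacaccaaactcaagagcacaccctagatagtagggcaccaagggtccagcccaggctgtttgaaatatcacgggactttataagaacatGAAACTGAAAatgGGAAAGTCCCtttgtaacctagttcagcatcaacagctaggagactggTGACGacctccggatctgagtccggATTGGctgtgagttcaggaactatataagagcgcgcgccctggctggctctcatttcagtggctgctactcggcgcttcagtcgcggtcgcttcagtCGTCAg
B2m held the GAAA pair at position -139 from the start, which 3.44% of the 32851 windows of this length in the table held, and an NF-kappaB match at -126 (4.51% of windows). H2-K1 and H2-D1 held no such pair but held GAANNGAAA at -90 and -150 (7.52% of windows) and overlapping NF-kappaB matches on the 2 strands at -111 and -110 in H2-K1 and at -171 and -170 in H2-D1. All 3 genes held TGACG (20.8% of windows) and ATTGG (37.4%), at -41 and -16 in H2-K1, at -101 and -76 in H2-D1, and at -78 and -53 in B2m. From a second RefSeq start of H2-K1, whose window is not shown, the same GAANNGAAA, TGACG and ATTGG matches lay at -104, -55 and -30. Distances from the start thus depend on the start chosen. The H2-K1 and H2-D1 windows shared an identical run of 47 bases, so their motifs are not independent. A match to these letters is a description of the sequence and not evidence of a bound factor.

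Tapbp codes for tapasin, which holds class I at the transporter until a peptide fits. Its signal at 1421812_at was 283.1, 280.5 and 312.5 in KO at 3 months, 322.8, 349.8 and 334.7 at 5 months, and 378.7, 428.4 and 327.7 at 8 months. In WT it was 186.4, 196 and 185.5 at 3 months, 193.1, 229.2 and 218.6 at 5 months, and 222.6, 272.9 and 238.2 at 8 months. Every KO array lay above the WT range. The change was 0.61 ± 0.06, or 1.53-fold (limma adjusted p = 8.07e-08), and it was 0.58, 0.62 and 0.64 at 3, 5 and 8 months. Without KO replicates 1 and 2 at 8 months the 8-month change was 0.48 and did not pass (limma adjusted p = 0.0714). A second probe set, 1450378_at, rose by 0.38 ± 0.1 over the ages (limma adjusted p = 0.0139), but it passed at no single age. Its 8-month value was 0.05, and -0.21 without KO replicates 1 and 2 at 8 months.

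Tap1 and Tap2 code for the subunits of the transporter. Tap2 at 1453913_a_at read 62.2, 71.5 and 69 in KO at 3 months, 69.8, 79.1 and 69.3 at 5 months, and 78, 80 and 44 at 8 months, against 48.9, 57.9 and 47.5, 60, 25 and 35.3, and 44.5, 39.6 and 49.8 in WT at the same ages. The groups overlapped, since 1 KO array at 8 months (44) lay among the WT values. Tap2 rose by 0.48 ± 0.12 over the ages (limma adjusted p = 0.0123), but no single age passed, and without KO replicates 1 and 2 at 8 months it did not pass over the ages either (0.32, limma adjusted p = 0.174). Without KO replicate 3 at 8 months its 8-month change was 0.64, with a limma adjusted p of 0.0385. None of the 4 Tap1 probe sets reached the filter on mean signal. The brightest, 1416016_at, read 40.9, 32.5 and 33.9 in KO at 3 months, 43.4, 31.3 and 38.5 at 5 months, and 57.5, 53.6 and 9.31 at 8 months. In WT it read 19.9, 20.2 and 2.22 at 3 months, 6.04, 14.2 and 10.9 at 5 months, and 21.7, 26.3 and 28.5 at 8 months. Only the KO array at 9.31 lay within the WT range. All 3 WT arrays at 5 months were no brighter than the bacterial controls, so that the KO signal was at least 2.56-fold higher there, with each WT array set at its 95th percentile of those controls. When all probe sets were tested without a filter, 1416016_at rose by 0.73 ± 0.2 over the ages (limma adjusted p = 0.0269), and no single age passed. The other Tap1 probe sets did not rise there: 1420274_at, 1449803_x_at and 1448177_at changed by -0.11, -0.15 and -0.09, none past the threshold. They were at the background on all 9 KO arrays and on 8, 7 and 8 of 9 WT arrays.

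Psmb8 and Psmb9 code for subunits of the immunoproteasome, the form of the proteasome that favours class I peptides. Psmb8 at 1422962_a_at was 66.3, 76.2 and 66.8 in KO at 3 months, 84.9, 109.8 and 92.1 at 5 months, and 90.8, 104.1 and 61.5 at 8 months. In WT it was 33.9, 44 and 41.2 at 3 months, 45.4, 31.7 and 45.8 at 5 months, and 46.2, 55.7 and 40.7 at 8 months. The lowest KO array, at 61.5, lay above the highest WT array, at 55.7. Psmb8 was higher by 0.77 ± 0.1, or 1.7-fold (limma adjusted p = 2.78e-05), with 0.97 at 5 months and 0.7 at 8 months past the threshold and 0.63 at 3 months not (limma adjusted p = 0.127). The 8-month call was lost without KO replicate 1 (0.63, limma adjusted p = 0.0641), without KO replicate 2 (0.58, 0.141) and without both (0.34, 0.603). The other Psmb8 probe set, 1444619_x_at, was too dim to be tested and at the background on 8 of 9 KO and 8 of 9 WT arrays. Psmb9 at 1450696_at was 52.1, 55.4 and 42.5 in KO at 3 months, 40.7, 65 and 26.7 at 5 months, and 54.4, 55.2 and 40.6 at 8 months. In WT it was 12.3, 27.4 and 29.6 at 3 months, 21.7, 46.1 and 23 at 5 months, and 27.6, 21.3 and 38.1 at 8 months. The genotypes overlapped, with 5 of 9 KO arrays above all WT arrays. Psmb9 rose by 0.59 ± 0.15 over the ages (limma adjusted p = 0.00919) but at no single age, and not without KO replicates 1 and 2 at 8 months (0.55, limma adjusted p = 0.0658). Psmb9, Tap1, Psmb8 and Tap2 are neighbours on chromosome 17 in the GRCm38.p6 gene table, where 8 of the 10 members lie. The start regions of Tap1 and Psmb9 face away from each other on opposite strands and overlap by 275 bases, and the Tap1 window is shown at chr17:34187306-34187605 on the plus strand with the same marking.
Tap1: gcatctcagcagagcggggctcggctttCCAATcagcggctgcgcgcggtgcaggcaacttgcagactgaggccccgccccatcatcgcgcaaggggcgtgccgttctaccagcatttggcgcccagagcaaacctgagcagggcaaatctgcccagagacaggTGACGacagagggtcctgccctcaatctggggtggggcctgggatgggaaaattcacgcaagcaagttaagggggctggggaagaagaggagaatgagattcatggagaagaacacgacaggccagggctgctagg
It held TGACG at -86 and ATTGG on the other strand at -222, and no match to the interferon or NF-kappaB motifs. The Psmb8 window held TTCNNNGAA at -97, which 8.3% of windows held, and the Tapbp window held ATTGG only.

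H2-Aa codes for the alpha chain of the class II molecule H2-A, which displays peptides of engulfed proteins to helper T cells. At 1435290_x_at its signal was 74.3, 106.3 and 123.1 in KO at 3 months, 148.6, 172.4 and 136 at 5 months, and 112, 216.8 and 146.2 at 8 months. In WT it was 34.5, 48.5 and 41.1 at 3 months, 58.9, 53.5 and 70.3 at 5 months, and 48.2, 96.8 and 81.4 at 8 months. Over all ages 1 KO array, of 3 months, lay within the WT range, and within each age all KO arrays lay above all WT arrays. H2-Aa rose by 1.07 ± 0.1, or 2.09-fold (limma adjusted p = 2.05e-07), and by 1.02, 1.13 and 1.05 at 3, 5 and 8 months, each past the threshold. The second tested probe set, 1438858_x_at, rose by 0.89 ± 0.16 (limma adjusted p = 0.000825). By age it passed at 8 months (0.92, limma adjusted p = 0.0392) but not at 3 and 5 months (1.05 and 0.69, limma adjusted p = 0.0869 and 0.257). Both tested probe sets, by the _x_ in their names, hold probes that also match other sequences, so their signal may be shared with other genes. Of the others, both too dim to be tested, 1443783_x_at was at the background on all 9 WT arrays and on 7 of the 9 KO arrays. The other, 1452431_s_at, averaged 28.1 in KO and 14.3 in WT. With no filter, 1452431_s_at rose by 0.54 ± 0.17 and did not pass (limma adjusted p = 0.0657), while 1443783_x_at rose by 0.59 ± 0.12 (limma adjusted p = 0.00423). The start region is at chr17:34287774-34288073 on the minus strand, with the same marking.
H2-Aa: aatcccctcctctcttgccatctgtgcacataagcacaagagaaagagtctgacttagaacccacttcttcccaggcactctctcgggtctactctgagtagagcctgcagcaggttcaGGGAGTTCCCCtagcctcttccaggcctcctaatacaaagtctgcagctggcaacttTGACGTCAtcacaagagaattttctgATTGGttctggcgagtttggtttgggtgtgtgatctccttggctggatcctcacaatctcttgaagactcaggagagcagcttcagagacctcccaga
It held overlapping NF-kappaB matches at -131 and -130, overlapping TGACG matches on opposite strands at -74 and -71, and ATTGG at -48.

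Cd74 codes for the invariant chain, which fills the class II groove until peptide is loaded. At 1425519_a_at it read 109.4, 84 and 101.4 in KO at 3 months, 101.9, 113.4 and 98.6 at 5 months, and 83.9, 161.6 and 98.6 at 8 months. In WT it read 78, 63.5 and 68.3 at 3 months, 64.6, 84.8 and 61.4 at 5 months, and 58.6, 84 and 88.1 at 8 months. The highest value, 161.6, was the only female array of the 8-month KO group. At 3 and 5 months all KO arrays lay above all WT arrays of that age, and at 8 months the groups overlapped. The change over the ages was 0.47 ± 0.11, or 1.39-fold (limma adjusted p = 0.00515), and no single age passed, with 0.41, 0.49 and 0.52 at 3, 5 and 8 months. The 8-month change was 0.25 without KO replicate 2 (limma adjusted p = 0.542), and it passed without KO replicate 1 (0.65, limma adjusted p = 0.0464). In bulk tissue more cells that express a gene and more RNA per cell cannot be told apart, which holds for every gene here.

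**Figure D2:**
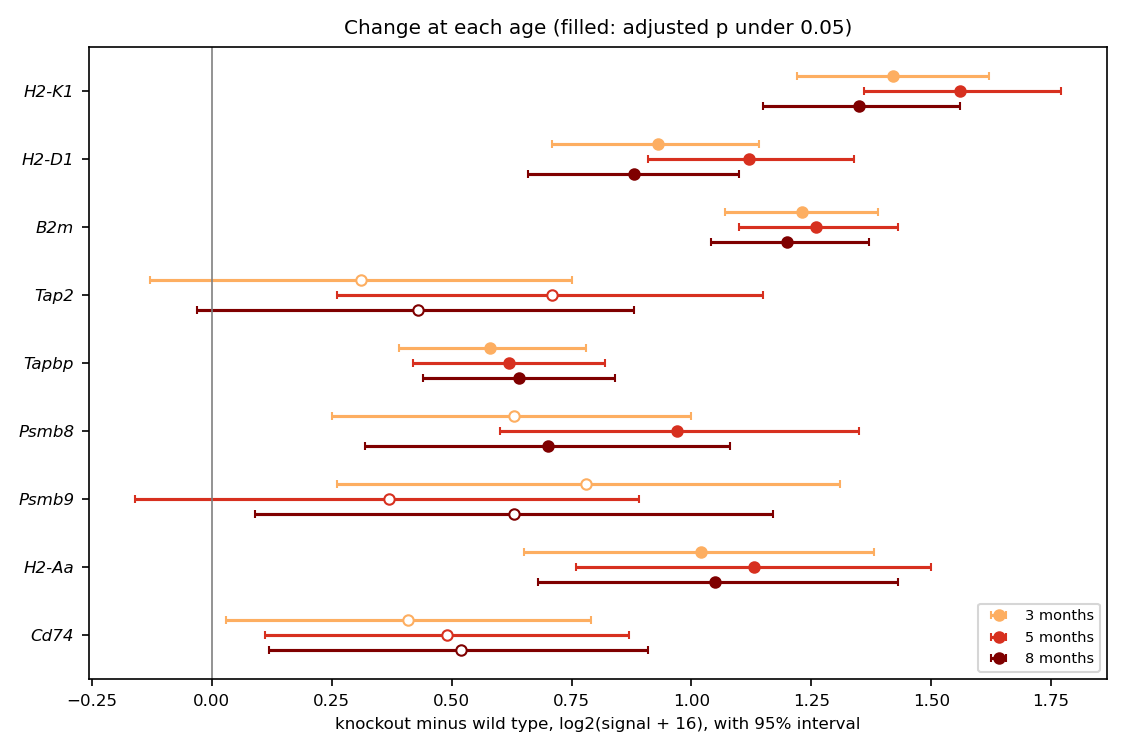
KO minus WT difference of log2(signal + 16) (x axis, with 95% interval) for 9 member genes at 3, 5 and 8 months, filled where the limma adjusted p was under 0.05. B2m lies at 1.23, 1.26 and 1.2 at 3, 5 and 8 months with narrow intervals, the intervals of Psmb9 and Tap2 are wide, and Psmb9, Tap2 and Cd74 are filled at no age.

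The size of the KO change was not shown to differ between ages for any member. Of the 9 genes and 17 probe sets, 0 passed the test of a difference in the KO effect between 3 and 5 months, 5 and 8 months, or 3 and 8 months, and at the brightest probe sets 0 genes had an unadjusted p under 0.05 in any of them. Over all tested probe sets 0%, 0% and 0.718% were higher in these tests. The change at 8 months minus that at 3 months was -0.07 for H2-K1 (95% interval -0.36 to 0.22), -0.04 for H2-D1 (-0.35 to 0.26), -0.03 for B2m (-0.26 to 0.21) and 0.06 for Tapbp (-0.23 to 0.34). For the dimmer members the intervals were wider, such as -0.46 to 0.61 for Psmb8 and -0.9 to 0.6 for Psmb9, which leave room for changes of that size. At 3 dimmer probe sets of genes with a brighter one the KO change was smaller at each later age. The 8-month minus 3-month difference was -1.46 at 1427746_x_at of H2-K1 (95% interval -2.21 to -0.71), just short of the threshold (limma adjusted p = 0.0512), -0.64 at 1451784_x_at of H2-D1 (limma adjusted p = 0.296) and -0.6 at 1450378_at of Tapbp (limma adjusted p = 0.254). The unadjusted p was 0.000564, 0.0331 and 0.0233 in that order.

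Signals were also compared between ages within each genotype. From 3 to 8 months in KO, 5 of the 9 genes rose (H2-K1, H2-D1, B2m, Tapbp and H2-Aa) against 2.9% of all tested probe sets, and in WT none passed against 0.0222%, although those same 5 genes had an unadjusted p under 0.05 there. H2-K1 changed by 0.39 in KO (limma adjusted p = 0.0257) and by 0.46 in WT (0.167), B2m by 0.31 (0.0258) and 0.34 (0.198), and Tapbp by 0.4 (0.0211) and 0.34 (0.375). H2-D1 changed by 0.37 in KO (0.0405) and 0.42 in WT (0.248), and H2-Aa by 0.68 (0.031) and 0.64 (0.352). A pass in one genotype and not in the other is not a difference between them, since the difference in effect was not called. The count of 5 in KO was 0 when KO replicate 1 or 2 of 3 months or KO replicate 2 of 8 months was left out, so it rests on single arrays.

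Not all genes of the pathways moved with these members. Over all tested probe sets 6.62% were higher over the ages. That share stands beside each count of higher genes or markers below. Of the 16 other genes of class I peptide processing, 3 were higher over the ages and 0 lower, with a median of 0.02 against -0.013 over all tested probe sets: Lap3, an aminopeptidase (0.46), Psme1, a part of the proteasome's activator cap (0.35), and Erap1, a trimming enzyme of the endoplasmic reticulum (0.53). Erap1 averaged 22.4 in WT and 39.5 in KO, and a gene this dim in WT passes the filter more readily when brighter in KO. Psmb10, another interferon-inducible catalytic subunit, changed by -0.03 (limma adjusted p = 0.84), and the chaperones Calr and Canx by -0.08 and 0.03. Of the 14 ordinary proteasome subunits, 0 passed in either direction over the ages, with a median of 0.02, although 1 or 2 were lower under 9 of 29 alternatives and 1 was higher under 8 of them. Among the other class I heavy chains 3 of 6 tested genes were higher: H2-M3 (0.43), Hfe, an iron regulator that is not known to present peptide (0.46), and Mr1, which presents vitamin metabolites (0.34). That count was 1 under 15 of 29 alternatives, most of which left out a single array. Probe sets that carry several class I symbols were higher as well, by 0.97 for H2-Q6 and H2-Q8, by 0.83 for H2-Q9 and H2-Q7, and by 0.71 for H2-T23 and a pseudogene. The probe set of H2-T9, H2-T22 and H2-T10 was higher by only 0.25 (limma adjusted p = 0.0414). Signal of near-identical heavy chains may be shared among them.

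Of the 8 other class II genes on the array 3 were bright enough to be tested, and 0 passed over the ages, against 2 without KO replicate 1 of 8 months and 1 without WT replicate 1 of 5 months or without KO replicates 1 and 2 of 8 months. H2-Ab1, the beta chain that pairs with the product of H2-Aa, averaged 54.5 ± 16.5 in KO and 44 ± 7.83 in WT (SD, n = 9 each), a change of 0.23 ± 0.1 (limma adjusted p = 0.163), and H2-DMa and H2-Eb1 changed by 0.29 and 0.37 (0.0863 and 0.165). By contrast, 7 of the 10 genes of class II peptide processing were higher, with a median of 0.51. They were led by the lysosomal proteases Ctss (1.24, limma adjusted p = 4.73e-11), which cleaves the invariant chain, Ctsd (1.04) and Ctsz (1.03), with Ifi30, a thiol reductase, at 0.94. Most of these are enzymes of the lysosome in general and are not particular to class II. Of the 8 genes on the array that co-stimulate T cells or bind MHC partners, 3 were bright enough to be tested. All 3 were higher: Cd48 (1.23), Icam1 (1.04) and Cd274, the ligand of the inhibitory receptor PD-1 (0.53). Cd48 passed at each age and Cd274 only at 5 months. Icam1 changed by 0.51, 0.86 and 1.76 at 3, 5 and 8 months and passed only at 8 months. In WT Cd48, Icam1 and Cd274 averaged only 14.4, 22.7 and 19.2, against 52.1, 70.7 and 34.6 in KO. Genes this dim in WT pass the filter on mean signal more readily when brighter in KO, so the filter favours such a count.

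**Figure D3:**
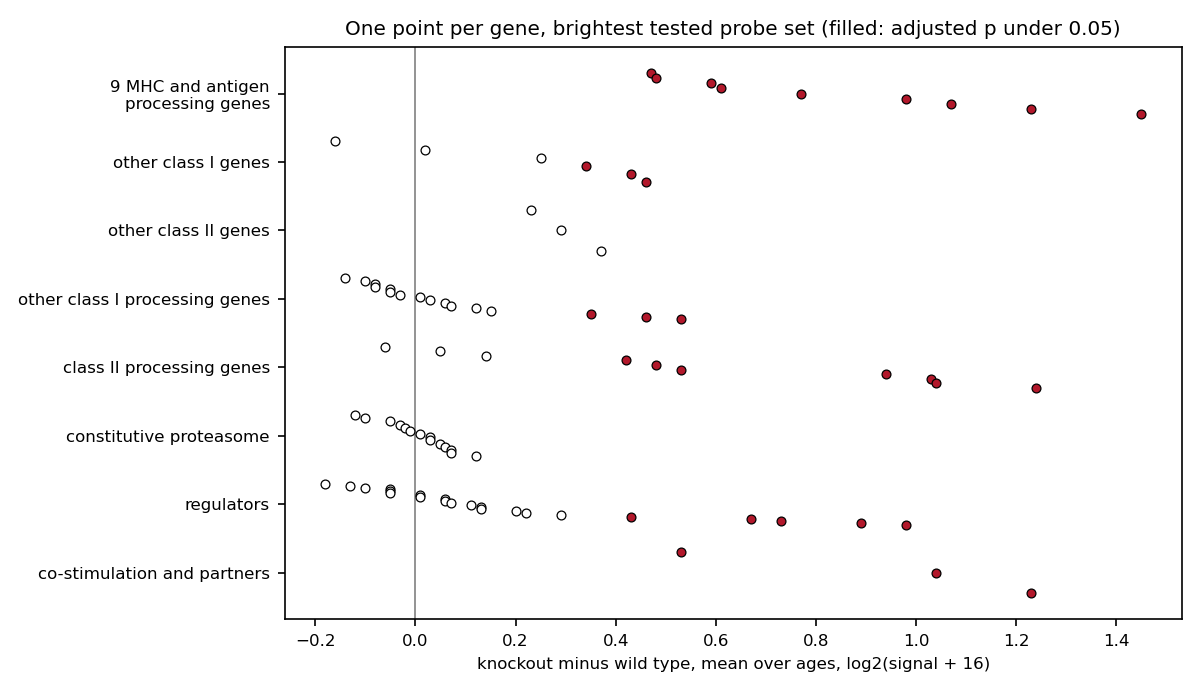
KO minus WT difference over the ages in log2(signal + 16) (x axis), with 1 point for the brightest tested probe set of each gene in 8 lists, filled where the limma adjusted p was under 0.05. The 9 MHC and antigen processing members are all filled, class II processing has 7 of 10 filled, and the 14 ordinary proteasome subunits have 0 filled.

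Factors that can switch these genes on were also measured. Of the 22 tested regulators, 5 were higher and 0 lower over the ages: Irf9, a partner of STAT proteins in interferon signalling (0.73), Irf8, a factor of myeloid cells (0.67), Irf7 (0.89), Irf1 (0.43, limma adjusted p = 0.00308) and Socs3, a feedback inhibitor (0.98). Socs3 changed by 0.22, 0.71 and 2 at 3, 5 and 8 months and passed only at 8 months (limma adjusted p = 0.0026). At 3 months only Irf9 of these 22 passed. Irf7 averaged 25.5 in WT and 62.3 in KO, and the filter on mean signal favours a gene that is dim in WT and brighter in KO. Nlrc5, the coactivator of class I genes, was too dim to be tested, at 7.07 to 46.1 in KO and 3.84 to 28.0 in WT. The 3 probe sets of Ciita, the coactivator of class II genes, lay at the background on 4, 6 and 7 KO arrays and on 5, 8 and 8 WT arrays. None of the 6 interferon genes on the array was bright enough to be tested, and Ifng was at the background on 9 KO and 8 WT arrays. Absence of signal at these probe sets sets no limit on RNA in a few cells.

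Some markers of microglia rose, as did all 5 astrocyte markers. Of the 9 microglial markers measured, 5 were higher over the ages and 1 lower: Mpeg1 (2.17), Cd68 (1.78), Tyrobp (1.77), Aif1 (1.1) and Itgam (0.44) rose, and P2ry12, a receptor of resting microglia, fell by 0.55. Csf1r, Cx3cr1 and Tmem119 changed by 0.09, 0.05 and -0.06, none past the threshold. The median change of the 9 microglial markers was 0.42, 0.84 and 0.13 at 3, 5 and 8 months. The summed signal of the list was 2937.2 to 3112.3, 3645.2 to 3825.4 and 3358.1 to 6193.6 in KO at 3, 5 and 8 months, and 2065.4 to 2288.9, 2180.9 to 2496.0 and 2578.1 to 2765.3 in WT. Of the 5 astrocyte markers, 5 were higher, with sums of 6616.0 to 6912.9, 9731.2 to 10635.0 and 10541.7 to 14560.4 in KO and 4500.0 to 4930.2, 4703.5 to 5232.8 and 4645.4 to 4746.4 in WT. Of border macrophage markers, Mrc1 (0.41) and Ms4a7 (1.64) rose, 2 of 6 tested, and of 6 endothelial markers 1 rose. Ms4a7 averaged 14.7 in WT and 93.0 in KO, so the filter on mean signal favoured its being tested. The share of these cells in the members' change was not tested.

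Markers of lymphocytes were near the background. Of the 11 markers of T and NK cells, 0 were bright enough to be tested, and 8, including Cd3e, Cd3d, Cd3g, Nkg7 and Gzmb, were at the background on most arrays. Their summed signal was 73.5 to 168.9 in KO and 68.5 to 168.1 in WT across the ages. Average signals of Cd3e, Cd3d, Cd3g, Cd8a, Cd8b1 and Cd2 were higher in KO, such as 13.1 against 6.98 for Cd3e. Those of Cd4, Nkg7, Gzma, Gzmb and Ncr1 were lower in KO, such as 7.96 against 11.6 for Nkg7. These differences were not tested, and signal near the background sets no limit on RNA in a few cells. The 4 B-cell markers on the array were not tested either. Of the dendritic cell markers, Cd209a, Xcr1 and Ccr7 were at the background on most arrays, and Itgax, also too dim to be tested, averaged 52.3 in KO and 10.7 in WT. The 2 tested ones, Flt3 (61.2 in KO and 70.6 in WT) and Zbtb46 (85.0 and 114.5), changed by -0.15 and -0.36, neither past the threshold.

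Within each array, pairs of genes of one complex or family were set against each other, as log2 ratios of the brightest probe sets, which show unequal change and not levels. The 5 ratios were chosen after the genes' values were seen, so they are descriptions with no test. The share of other gene pairs without overlap between genotypes was not computed. Psmb8 over Psmb5, the ordinary subunit it replaces, was higher in KO by 0.8, and Psmb8 over Psmb10 by 0.78, and in both all 9 KO arrays lay above all WT arrays. Psmb5 and Psmb10 alone changed by -0.05 and -0.03, so both ratios mostly repeat the change of Psmb8 alone, 0.77, and add little to it. Psmb9 over Psmb6, which it replaces, was higher by 0.49, with 4 of 9 KO arrays above all WT arrays. H2-Aa over H2-Ab1 was higher in KO by 0.81, with 7 of 9 KO arrays above all WT arrays. H2-K1 over H2-D1 was higher by 0.48, with 0.5, 0.44 and 0.52 at 3, 5 and 8 months, and 9 of 9 KO arrays above all WT arrays.

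**Figure D4:**
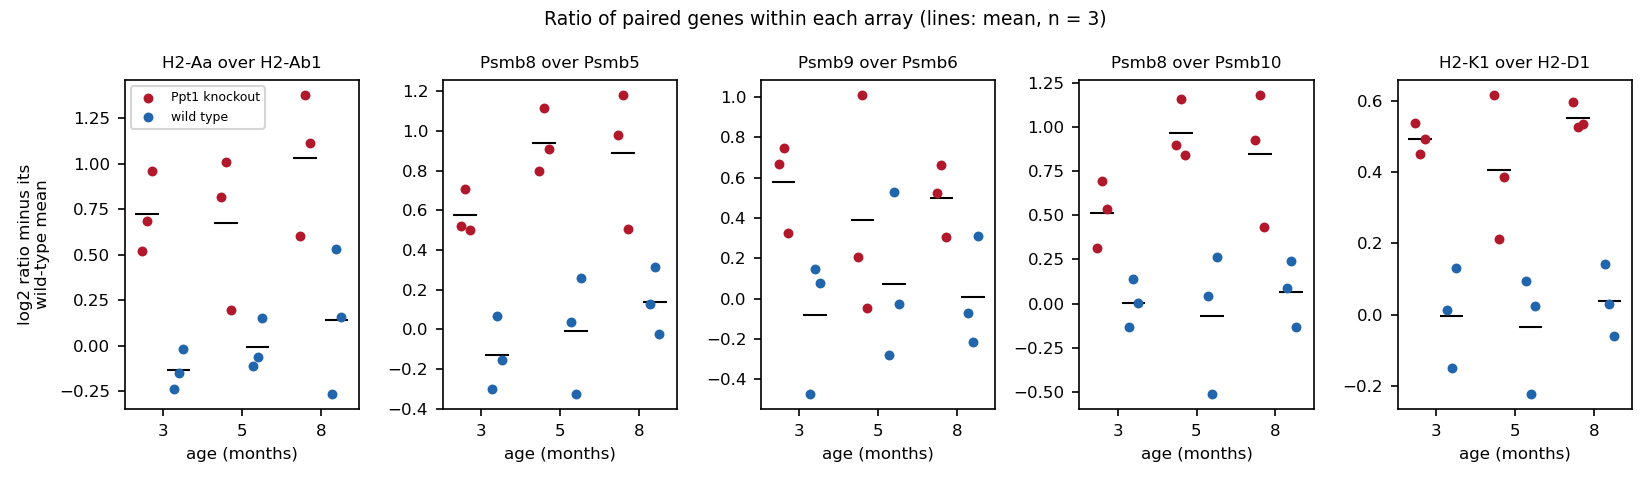
Log2 ratio of paired genes within each array, centred on its WT mean (y axis), against age in months, with KO red, WT blue and lines at the mean of 3 arrays. For Psmb8 over Psmb5, Psmb8 over Psmb10 and H2-K1 over H2-D1 the 9 KO arrays all lie above the 9 WT arrays.

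The members followed each other across the arrays. Over the 36 pairs of the 9 tested genes, Pearson's r of log2(signal + 16) over the 18 arrays ran from 0.46 to 0.98 with a median of 0.81. After the 6 group means were subtracted it ran from -0.22 to 0.82 with a median of 0.32, and 31 pairs were positive. These arrays share their scaling and their group differences, and the r values are descriptions. The likest non-members are given with r, and in brackets r after the group means. For H2-K1 they were Lgals3bp 0.989 (0.71), Tyrobp 0.97 (0.51), Gbp2 0.97 (0.22), Clec7a 0.968 (0.31) and Cst7 0.965 (0.42). For Psmb8 they were Cst7 0.937 (0.72), Lamp2 0.932 (0.78), Cd52 0.929 (0.4), Lgals3bp 0.928 (0.66) and Anxa5 0.926 (0.68). H2-Aa was most like Efemp1 0.924 (0.62), Lgals1 0.912 (0.4), Npc2 0.909 (0.86), Gltp 0.908 (0.67) and Mdk 0.903 (0.41). Cd74 was most like Txndc17 0.911 (0.87), Ddr2 0.894 (0.82), Gm266 0.885 (0.81), Cpxm2 0.866 (0.82) and Rell1 0.857 (0.64).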

How the data were processed

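The values are the intensity of each probe set on 18 one-colour Affymetrix-type arrays, as deposited by the authors on a linear scale; the method that made them is not given in the sources used here, and on every array their 2% trimmed mean was 150. Groups, ages and sexes were taken from the sample labels, and replicates were numbered in accession order, so the numbers name arrays and pair none. No 2 arrays held identical values (0 pairs). Gene symbols came from the platform annotation, and the 3 member probe sets with several symbols were kept apart. From the values, log2(signal + 16) was computed, 64 control probe sets and the lowest 40% by mean signal were left out, and 27022 of 45101 probe sets were fitted with limma 3.58.1 in R 4.3.3 (6 groups and sex, empirical Bayes with a variance trend). Adjusted p is Benjamini-Hochberg over all tested probe sets, with a threshold of 0.05. A signal counted as background when it was no higher than the array's 95th percentile of 27 bacterial control probe sets (9.24 to 19.2). Each gene was read at its brightest tested probe set, and from each other pathway list up to 5 genes were named by the smallest p, with chosen regulators added. The fits were tested on simulated data. The members, gene lists and markers were chosen with earlier results of these data known. Motifs were searched in 300-base RefSeq start windows (GRCm38.p6), which matched 8 of the 10 members, and no window is printed for Cd74 or Tap2. Alternatives were other scalings, pseudocounts of 1 and 64, other filters, fits without sex or trend, with array weights or robust variance, single age groups and arrays left out. Arrays limit precision by their number, 3 per group.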

Additional observations from a re-analysis of the deposited data

How the results depend on the processing

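The count of member genes higher in KO over the ages was 9 in all fits that left out 1 array (9 to 9), and the counts by age were 5 to 5 at 3 months, 6 to 7 at 5 months and 5 to 7 at 8 months. Over the ages it was also 10 with no filter, which adds Tap1, 6 with the lowest 60% left out and 7 without KO replicates 1 and 2 of 8 months. With the dimmest tested probe set of each gene in place of the brightest, 2 genes were higher at 3 months in place of 5, and 3 at 5 months in place of 6. The effects that differed between ages stayed at 0 when any array was left out (0 to 0). The KO rise from 3 to 8 months was the least stable count: 5 in the fit reported, 3 with no filter, 3 without the sex term, 1 without the variance trend, 0 with the dimmest probe sets, 0 with only the groups compared and 0 without KO replicates 1 and 2 of 8 months. Leaving out 1 array gave 0 to 5, with 2 without KO replicate 1 of 8 months and 3 without KO replicate 3 of 3 months. In WT the count was 0, against 1 with array weights, 1 with only the groups compared and 2 without KO replicates 1 and 2 of 8 months, and 0 to 1 when 1 array was left out. Of the changes of single probe sets under the alternatives, 1925 kept direction and call, 45 lost the call, 22 gained it and 3 reversed: Tapbp 1450378_at at 8 months was -0.13 without KO replicate 1 of 8 months (-0.13 to 0.18 over the single arrays left out) and -0.21 without replicates 1 and 2, and Tap2 at 8 months was -0.07 without them. Over the lists, the count of other class I genes higher was 3, and 1 under 15 of 29 alternatives. The other class II genes were 0, and 2 at most; ordinary proteasome subunits were 0 in each direction, and up to 1 higher and 2 lower. Regulators were 5 higher, and 2 with the lowest 60% left out; and co-stimulation genes were 3, and 0 with it. Leaving out the lowest 60% removes dim genes from the test, Psmb8, Psmb9 and Tap2 among the members. Counts under that filter can therefore fall without any call being lost. The cause of the other shifts was not tested. No paired analysis was possible because the labels give no numbers shared between the groups. At Tap1's brightest probe set 1 of 9 KO arrays and 4 of 9 WT arrays were at the background, which limits what its change can show.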
